A study of Mus musculus with 8 samples.

Results

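Cxcr4, Ackr3, Cxcl12, Csf1, Ccl2, Ccl7, Cxcl1, Lif and Il6 are 9 genes of chemokine and cytokine signalling, picked by gene name out of the 55223 loci of the expression table. Each name matched 1 locus that carried no other gene name. They were followed in cultured muscle stem cells, also known as satellite cells and the source of new fibres after injury. The mice were females of the wildtype strain C57BL/6J, 6 to 8 weeks of age. All cells had been expanded on Matrigel for 2 days and held in serum-free medium for 6 h with 200 ng/ml of a BMPR-IA-Fc chimera, a soluble receptor that binds BMPs from the medium. The treatments lasted 1 h. The first experiment set 100 ng/ml BMP4 against vehicle_a in cell isolations 48 and 54, and the second set 100 ng/ml BMP6 against vehicle_b in isolations 75 and 77. Vehicle was 4 mM HCl with 0.1% BSA in both. Each of the 4 groups held 2 poly(A) RNA-seq libraries, and each isolation gave 1 stimulated and 1 vehicle library.

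The BMPs are secreted ligands that act through serine/threonine kinase receptors and SMAD proteins to change transcription. CXCR4 is the signalling receptor for the chemokine CXCL12 and guides the migration of many stem cells, satellite cells among them, while ACKR3 binds the same chemokine and removes it from the surroundings of the cell. CSF1 is the growth factor of macrophages. CCL2 and CCL7 attract monocytes through CCR2, CXCL1 attracts neutrophils through CXCR2, and LIF and IL6 act through receptors that contain gp130, the product of Il6st. These molecules carry signals between muscle stem cells and the immune cells that enter injured muscle.

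Most markers of the labelled cell type were present: Pax7 stood at 11.1 to 16.9 TPM, Myod1 at 422 to 839 TPM and Des at 412 to 1561 TPM in all libraries. Chodl was the 1 of the 10 listed markers below 1 TPM in every library, at 0 to 0.262 TPM. Of 10 immune markers, Ptprc, Adgre1 and Tyrobp were listed at 0 in every library, Cd68 stood at 0.919 to 2.01 TPM and the Itgam locus, which also carries other gene names, at 10.9 to 17.1 TPM. The sum of the 10 was 12.3 to 17.4 TPM in the stimulated and 14.8 to 19.95 TPM in the vehicle libraries. The deposited TPM (a length-corrected share of the transcripts of each library) rest on an estimated 48012825 to 58002740 reads per library. In whole cultures fewer cells of a type and less RNA per cell cannot be told apart. Of the 9 genes, 8 had a mean of at least 0.5 TPM and were tested among 16908 loci with limma on log2(TPM + 0.5), and the adjusted p values are Benjamini-Hochberg values over all these loci. Lif, with a mean of 0.599 TPM, passed that minimum only through its stimulated libraries. Every log2 change below is on the log2(TPM + 0.5) scale, stimulated minus vehicle.

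Cxcr4, Ackr3 and Csf1 rose after BMP4, and Cxcr4 rose after BMP6, in the fit that compares libraries of the same isolation. That fit called 3 of the 8 genes for BMP4, all higher, where 0.633% of all loci were called, and 1 of 8 for BMP6, where the share was 0.148%. For the mean of both responses it called 3 of 8, against 0.674% of all loci, and for the difference between both responses 0 of 8, against 0% of all loci. In the fit without the isolation as a block, limma called 0 of the 8 in each of these comparisons, where 0.0237% of all loci were called for BMP4, 0.0118% for BMP6, 0.071% for the mean and 0% for the difference. It gave an unadjusted p under 0.05 to 560 of all loci for BMP4, 213 for BMP6, 405 for the mean and 244 for the difference. By direction alone, 4 of the 8 tested genes (Cxcr4, Ackr3, Csf1 and Lif) were higher in all 4 isolations, where 8.19% of all loci were, though Lif entered only by its stimulated level. A further 3 (Ccl2, Ccl7 and Cxcl1) were lower in all 4, where 9.2% of all loci were. The BMP4 libraries lay above both vehicle_a libraries for 3 genes, Cxcr4, Ackr3 and Lif (10.3% of all loci). They lay below them for 2, Ccl7 and Cxcl1 (12% of all loci). The BMP6 libraries lay above both vehicle_b libraries for 3, Cxcr4, Csf1 and Lif (10.6% of all loci). They lay below them for 2, Ccl2 and Ccl7 (9.95% of all loci). In both counts of higher genes Lif entered only by its stimulated level.

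**Figure D1:**
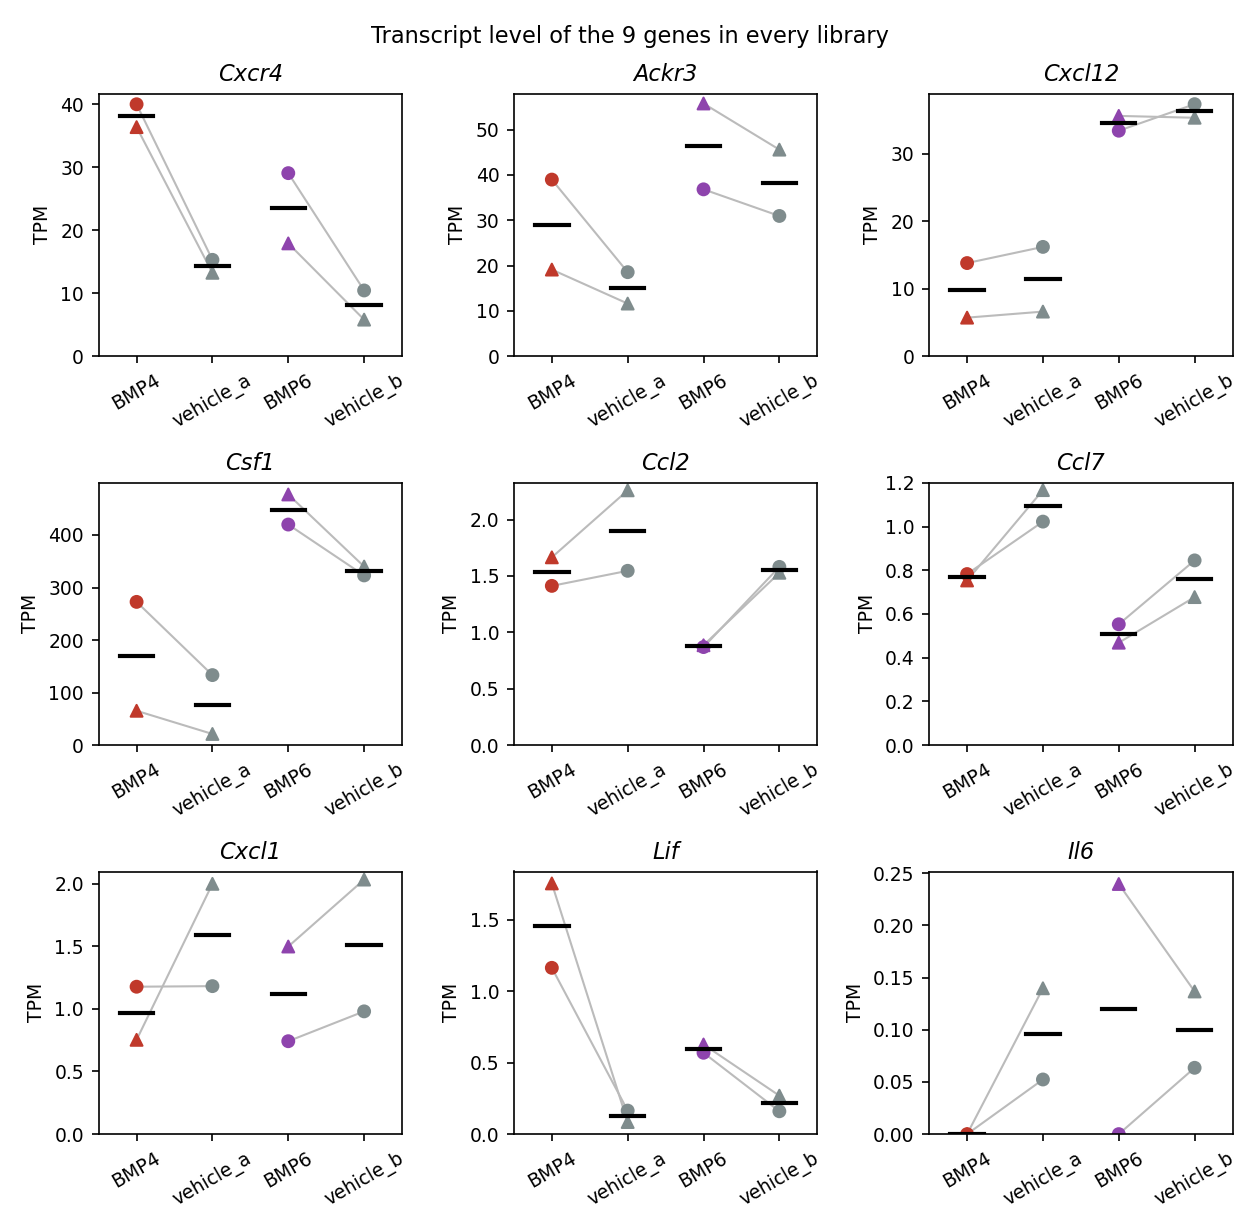
Transcript level of each gene in TPM (vertical axes, linear and starting at 0) in the BMP4, vehicle_a, BMP6 and vehicle_b libraries; circles are replicate 1, triangles replicate 2, grey lines join libraries of 1 isolation and black bars are group means. The lines of Cxcr4 fall from the stimulated to the vehicle library in all 4 isolations, with ratios of 2.62 to 3.09 but unequal steps in TPM. Csf1 and Cxcl12 are lower in every library of the BMP4 experiment than in any library of the BMP6 experiment. They also differ between the isolations of the BMP4 experiment, by 6.28 and 2.45 times between the vehicle_a libraries.

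Cxcr4 encodes the receptor of CXCL12 and lies on chromosome 1 from 128515936 to 128520027 of GRCm39 on the minus strand. It stood at 40.0 and 36.4 TPM in the BMP4 libraries, against 15.3 and 13.2 TPM in vehicle_a, and at 29.1 and 17.9 TPM in the BMP6 libraries, against 10.4 and 5.79 TPM in vehicle_b. Every stimulated library lay above every vehicle library, those of the other experiment included. The group means were 38.2 ± 2.57 TPM for BMP4 and 14.3 ± 1.46 TPM for vehicle_a (SD, n = 2 each), and 23.5 ± 7.89 TPM for BMP6 and 8.11 ± 3.28 TPM for vehicle_b (SD, n = 2 each). The ratio of stimulated to vehicle TPM was 2.62 in isolation 48, 2.75 in isolation 54, 2.79 in isolation 75 and 3.09 in isolation 77. Cxcr4 thus changed by nearly the same factor in isolations whose vehicle levels spanned 5.79 to 15.3 TPM.

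The log2 change of Cxcr4 for BMP4 was 1.39, with an SE of 0.31 and an adjusted p of 0.666 without the block (limma). With the isolation as a block the SE was 0.06 and the adjusted p 0.00534 (limma). For BMP6 the log2 change was 1.49, with an adjusted p of 1 without the block and 0.0121 with it (limma). The mean of both responses was 1.44, with an adjusted p of 0.206 without the block and 0.00144 with it (limma). The BMP6 response exceeded the BMP4 response by 0.10 on the log2 scale (SE 0.08 and adjusted p 0.613 with the block, limma). The changes were 1.36 and 1.43 in the BMP4 isolations and 1.44 and 1.55 in the BMP6 isolations. This difference did not pass, so the responses to both ligands are not shown to differ. When loci of every level were tested with the block, the adjusted p (limma) was 0.0601 for BMP4, 0.149 for BMP6 and 0.0268 for the mean, so that the calls for the single ligands were lost. The BMP6 call was lost as well when isolation 75 or isolation 77 was left out.

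The RefSeq promoters of the 4 genes that were higher in every isolation are shown at their genes, from 250 bases before to 50 bases after the annotated start, to let the regulatory sequence be read beside the response. They were searched on both strands for 7 short motifs: the GC-rich SMAD element GGCGCC, the SMAD box CAGAC, the AP-1 site TGANTCA, the NF-kB site (GGG, then 2 free bases, then TTTCC), the STAT site TTCNNNGAA, the RBPJ site TGGGAA and the TATA box TATAAA. RefSeq's table for GRCm38.p6 held 7 of the 9 genes. The promoters of Cxcl12, Cxcl1 and Il6, which are not shown and were not higher in every isolation, held matches as well. Cxcl12 held GGCGCC and the RBPJ site, and Cxcl1 held the SMAD box and NF-kB sites. Il6 held the SMAD box and the AP-1, NF-kB and RBPJ sites. Of all 32851 promoters in it, 11.9% held GGCGCC, 49.6% CAGAC, 7.81% TGANTCA, 1.63% the NF-kB site, 8.30% TTCNNNGAA, 25.6% TGGGAA and 13.6% TATAAA. Capitals mark every match in the sequences, and positions count from the start, with negative values before it. A match is a description of the letters and not a site shown to be bound.

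The Cxcr4 promoter, chr1:128592250-128592549 on the minus strand of GRCm38.p6, held a TATA box in the sense direction at -30 to -25 and an overlapping reverse match at -32 to -27, and no match to the other motifs.
Cxcr4: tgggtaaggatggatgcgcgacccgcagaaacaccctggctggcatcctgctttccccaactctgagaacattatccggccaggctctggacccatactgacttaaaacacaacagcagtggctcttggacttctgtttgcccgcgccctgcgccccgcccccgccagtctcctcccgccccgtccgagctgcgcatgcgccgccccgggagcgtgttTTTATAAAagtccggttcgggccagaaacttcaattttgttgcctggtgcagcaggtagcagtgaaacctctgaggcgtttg

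Foxc2, Pmepa1, Sik1, Nog and Gse1 were the 5 named loci whose 4 within-isolation changes lay nearest to those of Cxcr4, with root mean square differences of 0.307 to 0.332 on the log2 scale over 4 isolations. Foxc2 was low, at 0.144 to 0.647 TPM in the vehicle and 1.45 to 3.42 TPM in the stimulated libraries. It met the minimum level for this search only through its stimulated libraries. Foxc2 encodes a forkhead transcription factor, Pmepa1 a membrane-bound inhibitor of SMAD signalling, Sik1 a salt-inducible kinase and Nog the secreted BMP antagonist noggin. Nog had log2 changes of 1.65, 1.24, 1.97 and 1.59 in isolations 48, 54, 75 and 77, and Pmepa1 had 1.65, 1.40, 1.14 and 1.08. The spread over isolations was wider in these genes than the 1.36, 1.43, 1.44 and 1.55 of Cxcr4.

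Ackr3, the scavenging receptor of CXCL12, lies on chromosome 1 from 90131702 to 90144473 of GRCm39 on the plus strand. It stood at 39.0 and 19.1 TPM in the BMP4 libraries, against 18.5 and 11.6 TPM in vehicle_a, and at 36.8 and 55.8 TPM in the BMP6 libraries, against 30.9 and 45.6 TPM in vehicle_b. The stimulated library lay above the vehicle library in each isolation, and the groups overlapped in the BMP6 experiment but not in the BMP4 experiment. The log2 change was 0.87 for BMP4, with an SE of 0.41 and an adjusted p of 1 without the block, and an SE of 0.09 and an adjusted p of 0.0412 with it (limma). For BMP6 it was 0.27, with an adjusted p of 0.809 with the block (limma). The mean response of 0.57 had an adjusted p of 0.0483 with the block (limma), a call lost with the block when libraries were scaled to 1 median, at a pseudocount of 0.1 or 2 and with no minimum level. The BMP6 response was lower than the BMP4 response by a log2 difference of -0.61 (SE 0.13 and adjusted p 0.288 with the block, limma), so the responses to both ligands are not shown to differ, and ligand and experiment cannot be told apart.

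Because Cxcr4 and Ackr3 moved by unequal amounts, the ratio of their TPM values was higher in the stimulated library of every isolation. It was 1.03 and 1.90 in the BMP4 libraries, against 0.825 and 1.14 in vehicle_a, and 0.789 and 0.321 in the BMP6 libraries, against 0.337 and 0.127 in vehicle_b. The Cxcr4 TPM thus exceeded the Ackr3 TPM in both BMP4 libraries and in vehicle_a replicate 2, and in no library of the BMP6 experiment. Ligand and experiment cannot be told apart here, and protein was not measured. The Ackr3 promoter, chr1:90203730-90204029 on the plus strand of GRCm38.p6, held a TATA box at -8 to -3 and no match to the other motifs.
Ackr3: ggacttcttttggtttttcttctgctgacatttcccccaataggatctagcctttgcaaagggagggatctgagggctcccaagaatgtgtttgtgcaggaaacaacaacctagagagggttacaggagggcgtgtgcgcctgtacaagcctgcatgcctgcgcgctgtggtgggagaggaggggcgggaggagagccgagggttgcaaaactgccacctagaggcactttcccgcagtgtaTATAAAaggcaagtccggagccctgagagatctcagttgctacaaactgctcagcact

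Cxcl12 encodes the ligand of both receptors and lies on chromosome 6 from 117145496 to 117158328 of GRCm39 on the plus strand. Its level was 13.8 and 5.71 TPM in the BMP4 libraries, against 16.2 and 6.60 TPM in vehicle_a, and 33.4 and 35.6 TPM in the BMP6 libraries, against 37.4 and 35.4 TPM in vehicle_b. Stimulated libraries were slightly lower in 3 isolations and slightly higher in isolation 77, and the groups overlapped in both experiments. The log2 changes were -0.21 for BMP4 and -0.07 for BMP6, with adjusted p values (limma) of 0.170 and 1 with the block, each with an SE of 0.06. The transcripts of both receptors were therefore called higher after the BMP4 pulse with the block, while no change of the ligand transcript passed the test. Cxcl12 was spread over 3 annotated transcripts that encode its alpha, beta and gamma forms with 89, 93 and 119 codons. The alpha transcript took 33.0% to 41.1% of the Cxcl12 TPM, the beta transcript 20.8% to 40.9% and the gamma transcript 21.4% to 39.2%, so that every form was present in every library. Reads of 50 nt place such forms with uncertainty.

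Csf1, the macrophage growth factor, lies on chromosome 3 from 107648364 to 107667785 of GRCm39 on the minus strand and was the most abundant of the 9 genes, with a mean level above that of 95.3% of the tested loci. It stood at 272.7 and 65.4 TPM in the BMP4 libraries, against 133.3 and 21.2 TPM in vehicle_a, and at 419.9 and 477.1 TPM in the BMP6 libraries, against 323.1 and 340.0 TPM in vehicle_b. The groups overlapped in the BMP4 experiment, where isolation 48 was high and isolation 54 low in both cultures, and did not overlap in the BMP6 experiment. The ratio of stimulated to vehicle TPM was 2.05 in isolation 48, 3.08 in isolation 54, 1.30 in isolation 75 and 1.40 in isolation 77.

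For BMP4 the log2 change of Csf1 was 1.32, with an SE of 0.93 and an adjusted p of 1 without the block, and an SE of 0.13 and an adjusted p of 0.0407 with it (limma). For BMP6 it was 0.43, with an adjusted p of 0.743 with the block (limma). The mean response was 0.87, with an adjusted p of 0.0446 with the block (limma), a call lost at a pseudocount of 0.1. The BMP6 response minus the BMP4 response was -0.88 on the log2 scale (SE 0.19 and adjusted p 0.288 with the block, limma), so the responses to both ligands are not shown to differ. Leaving out isolation 75 or isolation 77 ended the Csf1 and Ackr3 calls for BMP4 and for the mean, as did testing loci of every level.

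**Figure D2:**
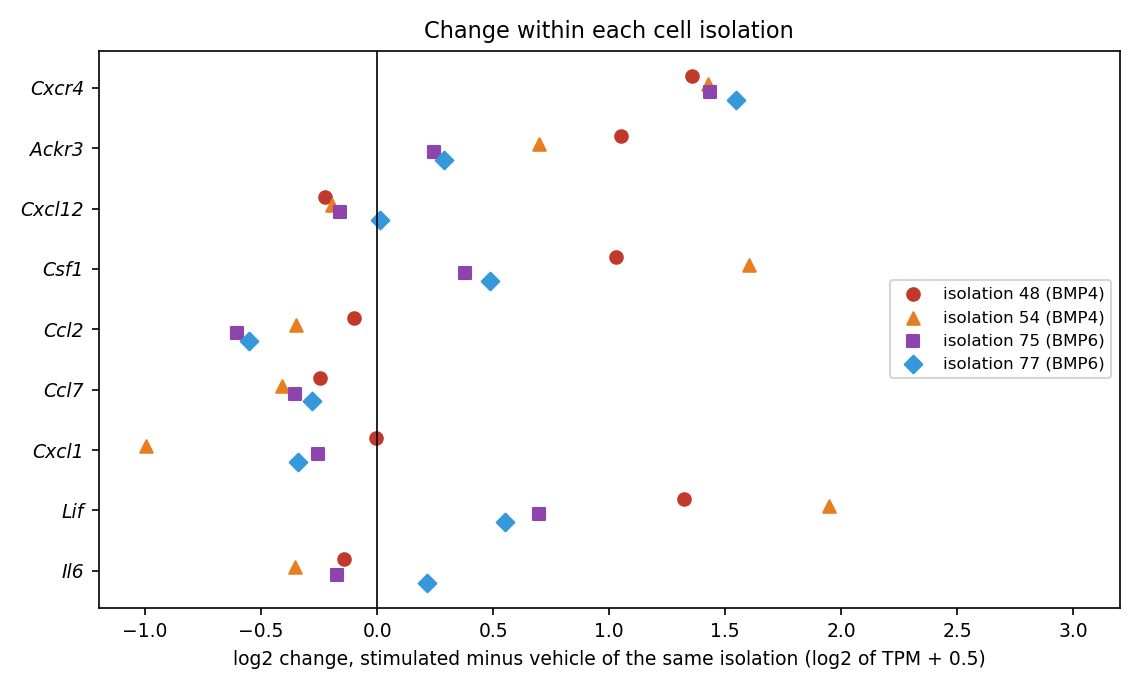
Log2 change of each gene within each isolation, stimulated minus vehicle on the log2(TPM + 0.5) scale (horizontal axis), with 1 point per isolation. The 4 points of Cxcr4 lie close together between 1.36 and 1.55, whereas for Csf1, Ackr3 and Lif both BMP4 isolations lie to the right of both BMP6 isolations.

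The nearest of all named loci to the 4 within-isolation changes of Csf1 were Zc3h12a, Map2k3os, Apol9b, Rgs3 and Zfp469, with root mean square differences of 0.158 to 0.195 on the log2 scale. Zc3h12a encodes regnase-1, an RNase that cuts cytokine mRNAs, and Rgs3 a regulator of G-protein signalling. Zc3h12a had log2 changes of 1.16 and 1.32 in the BMP4 isolations and 0.39 and 0.54 in the BMP6 isolations, against 1.03, 1.60, 0.38 and 0.49 for Csf1.

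Csf1 is known to be made as secreted forms from long transcripts and as a cell-surface form from a short transcript that lacks part of the coding sequence. The 2 transcripts with 552 codons held 83.0% and 96.5% of the Csf1 TPM in the BMP4 libraries, against 73.9% and 76.0% in vehicle_a. In the second experiment they held 95.7% and 94.1% in the BMP6 libraries, against 93.4% and 91.5% in vehicle_b. The transcript with 257 codons, the cell-surface form, held 15.5% and 1.89% in the BMP4 libraries, against 25.1% and 23.7% in vehicle_a, and 3.54% and 4.93% in the BMP6 libraries, against 5.94% and 7.94% in vehicle_b. The short form took a smaller share in the stimulated library of every isolation, and no test was run on these shares because reads of 50 nt place transcripts with uncertainty. In TPM the short form stood at 42.2 and 1.23 in the BMP4 libraries, against 33.4 and 5.04 in vehicle_a, so that its level was higher in isolation 48 and lower in isolation 54.

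**Figure D3:**
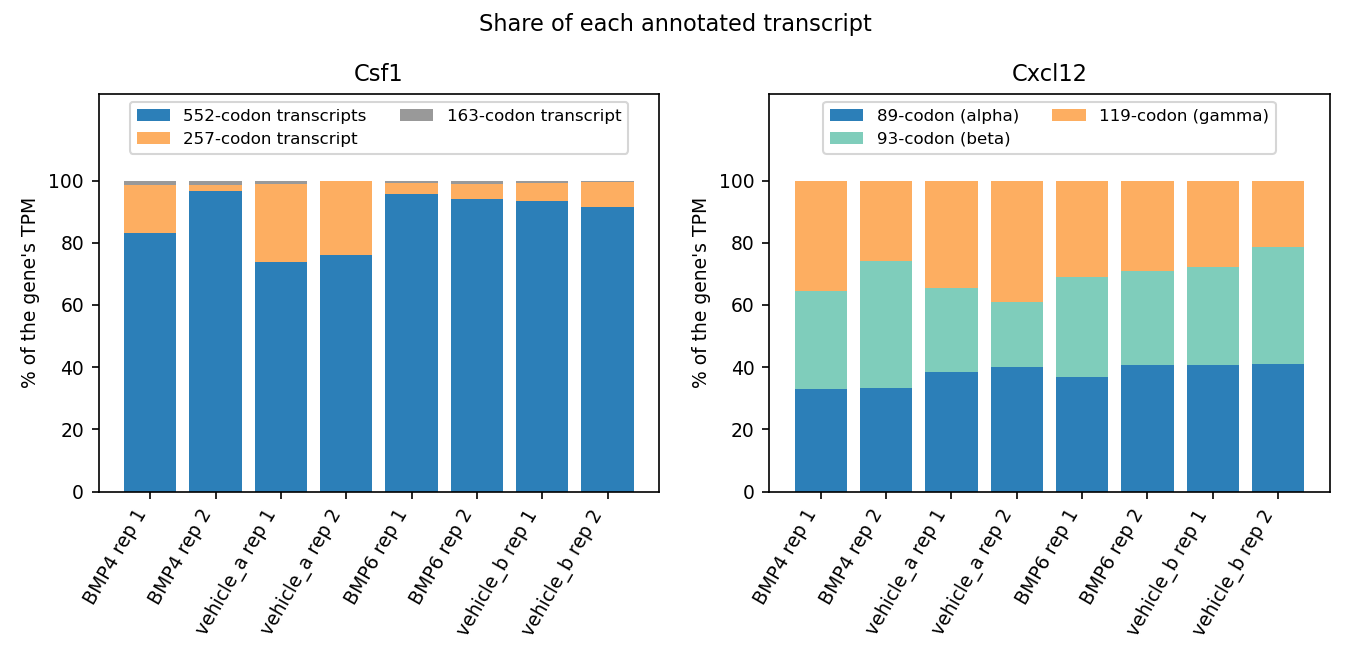
Share of each annotated transcript in the TPM of Csf1 (left) and Cxcl12 (right), in percent, for every library. The 257-codon transcript of Csf1 takes 23.7% and 25.1% in vehicle_a and under 8% in both libraries of BMP6 and of vehicle_b, while the 3 forms of Cxcl12 share its level in every library.

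The Csf1 promoter, chr3:107760420-107760719 on the minus strand of GRCm38.p6, held 1 match to the NF-kB motif, on the reverse strand at -154 to -145, and none to the other motifs.
Csf1: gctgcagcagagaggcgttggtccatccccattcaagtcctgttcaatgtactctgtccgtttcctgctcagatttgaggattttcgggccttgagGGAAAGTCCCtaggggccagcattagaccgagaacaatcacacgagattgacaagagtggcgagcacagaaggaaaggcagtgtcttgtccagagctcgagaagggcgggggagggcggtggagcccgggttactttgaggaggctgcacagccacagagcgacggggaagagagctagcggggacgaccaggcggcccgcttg

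Lif encodes a cytokine of the IL6 family that acts on myoblasts and lies on chromosome 11 from 4207557 to 4222514 of GRCm39 on the plus strand. It was a low gene, with 1.16 and 1.76 TPM in the BMP4 libraries, against 0.165 and 0.0845 TPM in vehicle_a, and 0.570 and 0.628 TPM in the BMP6 libraries, against 0.160 and 0.269 TPM in vehicle_b. Every stimulated library lay above every vehicle library. These levels rested on 180 and 246 estimated reads in the BMP4 libraries, against 26 and 13 in vehicle_a, and on 79 and 90 in the BMP6 libraries, against 24 and 39 in vehicle_b. The TPM ratio of stimulated to vehicle was 7.08 in isolation 48, 20.8 in isolation 54, 3.56 in isolation 75 and 2.33 in isolation 77.

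The log2 change of Lif was 1.64 for BMP4, with an adjusted p of 0.238 without the block and 0.0617 with it (limma), and 0.62 for BMP6, with an adjusted p of 0.806 with the block (limma). The mean response was 1.13, with an adjusted p of 0.0738 with the block (limma). Lif therefore did not pass the threshold on this scale, which understates the change of a gene at such levels. With loci of every level tested, a fit that Lif does not enter by its stimulated level, the adjusted p with the block was 0.214 for BMP4 and 0.253 for the mean (limma). The Lif promoter, chr11:4257318-4257617 on the plus strand of GRCm38.p6, held an AP-1 match at -228 to -222, a reverse RBPJ match at -128 to -123 and a SMAD box at -23 to -19.
Lif: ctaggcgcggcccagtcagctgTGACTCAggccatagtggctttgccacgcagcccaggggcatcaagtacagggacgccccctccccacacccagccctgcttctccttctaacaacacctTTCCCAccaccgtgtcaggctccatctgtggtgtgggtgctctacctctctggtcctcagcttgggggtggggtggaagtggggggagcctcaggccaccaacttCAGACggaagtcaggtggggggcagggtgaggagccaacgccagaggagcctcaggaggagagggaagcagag

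The chemokine genes Ccl2, Ccl7 and Cxcl1 were low, at 0.469 to 2.26 TPM over all libraries, and none passed the test in any BMP comparison. Ccl2 and Ccl7 are neighbours on chromosome 11, from 81926397 to 81928279 and from 81936538 to 81938351 of GRCm39, both on the plus strand. Ccl2 stood at 1.41 and 1.66 TPM in the BMP4 libraries, against 1.55 and 2.26 TPM in vehicle_a, and at 0.869 and 0.885 TPM in the BMP6 libraries, against 1.58 and 1.53 TPM in vehicle_b. The groups of Ccl2 overlapped for BMP4 but not for BMP6, where the log2 change was -0.58 and the adjusted p 0.484 with the block (limma). It rested on 24 to 69 estimated reads per library, and the part of counting error in its spread was not tested.

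Ccl7 stood at 0.783 and 0.753 TPM in the BMP4 libraries, against 1.02 and 1.17 TPM in vehicle_a, and at 0.553 and 0.469 TPM in the BMP6 libraries, against 0.845 and 0.677 TPM in vehicle_b, on 14 to 36 estimated reads. Its stimulated libraries lay below vehicle without overlap in both experiments, and its mean log2 change of -0.32 had an adjusted p of 0.293 with the block (limma). Cxcl1, on chromosome 5 from 91039100 to 91040974 of GRCm39 on the plus strand, stood at 1.18 and 0.752 TPM in the BMP4 libraries, against 1.18 and 2.00 TPM in vehicle_a, and at 0.742 and 1.50 TPM in the BMP6 libraries, against 0.980 and 2.03 TPM in vehicle_b. Its change was close to 0 in isolation 48, at -0.004 on the log2 scale, and its mean log2 change of -0.40 had an adjusted p of 0.424 with the block (limma). For these 3 genes the mean log2 changes lay between -0.40 and -0.32, against a median of -0.01 over all tested loci. None of these decreases passed the test, and the part of read depth in this was not tested.

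Il6, on chromosome 5 from 30218112 to 30224979 of GRCm39 on the plus strand, was below the minimum for testing. It was listed at 0 and 0 TPM in the BMP4 libraries, against 0.0524 and 0.140 TPM in vehicle_a, and at 0 and 0.240 TPM in the BMP6 libraries, against 0.0636 and 0.137 TPM in vehicle_b. At most 10 estimated reads lay on the gene in any library. A count of 0 allows 3 reads, which corresponds to 0.0684 and 0.0713 TPM in the BMP4 libraries for the Il6 transcript of 1141 nt. In vehicle_a replicate 1 the Il6 TPM lay wholly on a transcript of 2343 nt, for which 3 reads correspond to a lower TPM. The 0 reads in both BMP4 libraries stood against 5 and 8 estimated reads in vehicle_a. The BMP6 libraries had 0 and 10, against 4 and 6 in vehicle_b, so the groups overlapped there. With loci of every level tested, Il6 did not pass for BMP4 (adjusted p 0.516 with the block, limma) or BMP6 (adjusted p 1).

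The vehicle levels were compared between the experiments, and the genes passed no more often than loci at large. Cxcl12 was higher in vehicle_b than in vehicle_a by 1.76 on the log2 scale (SE 0.49, adjusted p 0.0424, limma), and it was the 1 gene of 8 that passed, where 27.2% of all loci did. The call was lost with voom, without a minimum level and on leaving out vehicle_a replicate 2 or any library of the BMP6 experiment. Csf1 had a log2 level 2.62 higher in vehicle_b than in vehicle_a (SE 0.93, adjusted p 0.0760, limma) and Ackr3 1.33 higher (SE 0.41, adjusted p 0.0561, limma), while Cxcr4 had a log2 difference of -0.83 (SE 0.31, adjusted p 0.0894, limma). None of these 3 passed. The 2 vehicle_a libraries differed by 6.28 times in Csf1 and 2.45 times in Cxcl12, while the 2 vehicle_b libraries differed by under 1.1 times in both, with ratios of replicate 1 to replicate 2 of 0.950 and 1.06. The vehicle_b libraries lay above both vehicle_a libraries for 3 of the 8 genes (34.9% of all loci) and below them for 2 (38.8% of all loci). Isolation and experiment coincide and cannot be told apart. The fit between the vehicles took its spread from all 8 libraries as if they were independent. Deviations of paired libraries correlated at 0.707 and 0.455 across loci, so its p values can be too small, for these genes and for all loci.

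Markers of other cell types moved with the experiment as well. The summed TPM of 9 pericyte and smooth muscle markers was 75.5 and 84.5 in vehicle_b, against 799 and 1515 in vehicle_a, most of it Acta2. The sum of 11 fibroblast markers was 63.9 and 76.1 TPM in vehicle_b, against 272 and 647 TPM in vehicle_a, where Col1a2 made up most of it. Of these lists 5 of 7 tested pericyte genes (Pdgfrb, Abcc9, Acta2, Notch3 and Mcam) passed as lower in vehicle_b. So did 3 of 6 tested fibroblast genes (Col1a1, Col1a2 and Col3a1), while Cd34 passed as higher. Between the vehicles 27.2% of all loci passed, 2803 as lower in vehicle_b and 1799 as higher. The sum of 10 muscle stem cell markers was 1250 and 1642 TPM in vehicle_b, against 2738 and 2920 TPM in vehicle_a, with 5 of 9 tested genes passing as lower and 2, Myf5 and Megf10, as higher. Of the 11 fibroblast markers, Pdgfra, Dcn and Lum stayed at or below 0.512 TPM in every library. Ly6a, on the same list, stood at 9.29 to 15.5 TPM over all libraries. Cd34 stood at 12.4 and 15.6 TPM in vehicle_b, against 1.91 and 0.318 TPM in vehicle_a. The presence of fibro-adipogenic cells was not tested. Within isolations the pericyte sum was 791 and 1489 TPM in the BMP4 libraries, against 799 and 1515 TPM in vehicle_a, and 87.2 and 92.7 TPM in the BMP6 libraries, against 75.5 and 84.5 TPM in vehicle_b. The fibroblast sum was 242 and 546 TPM in the BMP4 libraries, against 272 and 647 TPM in vehicle_a, and 64.3 and 71.3 TPM in the BMP6 libraries, against 63.9 and 76.1 TPM in vehicle_b. With the block, the pericyte gene Cspg4 passed as higher in the mean response (log2 change 0.49, adjusted p 0.0261, limma). Myf5, a regulator of myogenic identity, passed as lower for BMP4 (log2 change -1.17, adjusted p 0.00326) and for BMP6 (log2 change -0.70, adjusted p 0.0192, limma). It was the 1 of 9 tested muscle stem cell markers that did. With the block 0.633% of all loci were called for BMP4, 0.148% for BMP6 and 0.674% for the mean response. The part of these marker changes in the responses of Cxcr4, Ackr3 and Csf1 was not tested. The part of these cells in the vehicle levels of Cxcl12, Csf1 and Ackr3 was not tested.

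Around the 9 genes, 121 further genes of the same pathways were listed, of which 117 had a locus, 41 were tested and 78 stayed below 0.5 TPM in every library. In the fit without the block limma called 0 of the 41 in each BMP comparison. With the block it called 0 for each ligand and 1 of 41 for the mean response, where 0.674% of all loci were called. The 1 gene was Socs2, an inhibitor of cytokine receptor signalling. Socs2 stood at 60.7 and 42.8 TPM in the BMP4 libraries, against 51.5 and 31.1 TPM in vehicle_a, and at 31.1 and 40.4 TPM in the BMP6 libraries, against 22.1 and 26.4 TPM in vehicle_b. It was higher in all 4 isolations, with a mean log2 change of 0.44 (SE 0.05, adjusted p 0.0446 with the block, limma). Its groups overlapped for BMP4 and did not overlap for BMP6.

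Socs3, another inhibitor of the same kind, did not pass. It had 46.7 TPM in BMP4 replicate 1, against 16.7 TPM in the vehicle of the same isolation, and 21.7 TPM in BMP4 replicate 2, against 25.3 TPM in its vehicle. In the BMP6 experiment it had 44.1 and 53.0 TPM in the BMP6 libraries, against 38.9 and 51.2 TPM in vehicle_b. Only isolation 48 showed a large difference, with a log2 change of 1.46, while the other three lay between -0.22 and 0.18.

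The receptors for the secreted factors were unevenly present. The CSF1 receptor gene Csf1r shared its locus with a microRNA gene and lay at 0.0464 to 0.115 TPM, and Ccr2 and Cxcr2 were listed at 0 in every library. No gene on the list of 18 chemokine receptors, which holds Ccr2 and Cxcr2 and 1 gene with no locus, reached a mean of 0.5 TPM. The locus of the atypical receptor gene Ackr1, shared with Cadm3, stood at 0.739 to 2.11 TPM and did not pass in any BMP comparison. Il6ra stood at 0.0880 to 0.481 TPM, whereas Il6st, the shared receptor chain, stood at 28.0 to 43.1 TPM and Lifr at 1.24 to 2.75 TPM. Il6st and Lifr had mean log2 changes of -0.03 and 0.10, with adjusted p values of 0.736 and 0.599 with the block (limma).

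By list, the median log2 change for the mean response was -0.05 over 8 tested genes of the CXCL12 axis, 0.10 over 4 of the CSF axis, 0.06 over 5 other chemokines, 0.03 over 17 of the IL6 family and -0.02 over 7 other secreted cytokines, against -0.01 over all tested loci. Between the vehicles, 3 of the 41 passed as higher in vehicle_b and 8 as lower, where 27.2% of all loci passed. Those lower were Mif, Gnai2, Ctf1, Il11ra1, Tyk2, Pias3, Il18 and the locus that Epo shares with Gnb2. Il34, which encodes the second ligand of the CSF1 receptor, was higher in vehicle_b by 1.53 on the log2 scale (adjusted p 0.0268, limma), as were Kitl by 1.99 (adjusted p 0.00740, limma) and Cxcl10 by 1.22 (adjusted p 0.0228, limma).

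**Figure D4:**
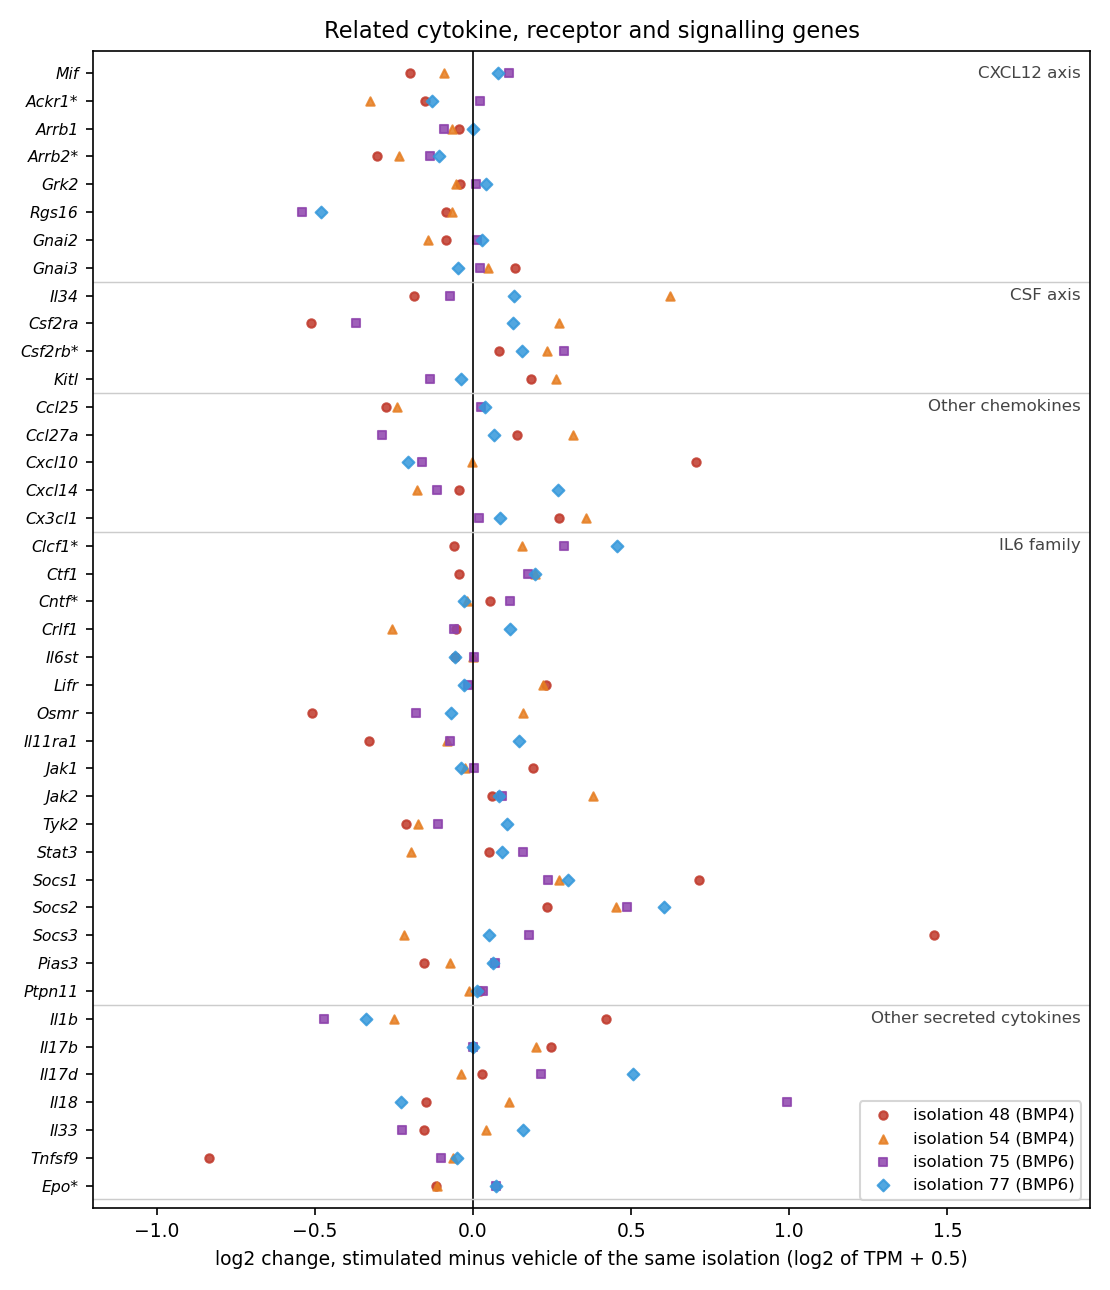
Log2 change within each isolation, stimulated minus vehicle on the log2(TPM + 0.5) scale (horizontal axis), for the 41 tested genes of the related lists; an asterisk marks a locus that also carries another gene name, such as Epo with Gnb2, whose value is uncertain. Most genes scatter about 0, Socs2 lies to the right in all 4 isolations and Socs3 in isolation 48 stands far from its other three points.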

How the data were processed

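Poly(A) RNA of 8 cultures was made into strand-specific libraries from 500 ng RNA and read as 50 nt single ends, per the labels' protocols. The submitters' processing notes list GRCm39, STAR 2.7.11a and SAMtools 1.17. For TPM, FPKM and coverage signal the authors ran StringTie 2.2.1, per the file headers, without a correction for multi-mapping reads and without a strand option, so paralogs and overlapping loci are uncertain. TPM are shares of each library. Depth was estimated from coverage, transcript length and read length; the intervals it gives cover counting error only.

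All loci that averaged 0.5 TPM or more were fitted with limma 3.58.1 in R 4.3.3 on log2(TPM + 0.5), with 4 group means, a trend, two-sided Benjamini-Hochberg adjustment over 16908 loci and a threshold of 0.05. The blocked fit adds the isolation, which pairs libraries by the labels; paired deviations correlated at 0.707 and 0.455 across loci. Replicates were no duplicates, with a chi-square of 38.0 to 273 per locus between them, against about 1 for sampling noise. With 2 libraries per group, p values reflect only how far these isolations differ. Alternatives were other pseudocounts, filters, scaling, FPKM, voom and left-out libraries. The genes and lists were chosen with earlier results of these data known. Named were the 9 genes, related genes that passed in a BMP comparison, 7 set receptors and inhibitors, and the 5 nearest loci to Cxcr4 and Csf1; Ackr1, the related genes named between the vehicles and the marker genes were named after their values were seen. The procedure was tested on simulated data. Promoter sequences are RefSeq's for GRCm38.p6, and loci are given in GRCm39.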

Additional observations from a re-analysis of the deposited data

How the results depend on the processing

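The number of the 8 genes called moved with the replicate block and, within it, with the minimum level: for BMP4 it was 0 without and 3 with the block, for BMP6 0 and 1, and for the mean response 0 and 3, and among the related genes the mean response gave 0 and 1. With the block, BMP4 gave 4 with voom (Lif, which entered only through its stimulated libraries, was added), 3 with 1 median, with a pseudocount of 0.1 or 2 and without isolation 48 or 54, 1 without isolation 75 or 77, and 0 without a minimum level. BMP6 gave 1 with voom, 1 median, either pseudocount and without isolation 48 or 54, and 0 without isolation 75, without isolation 77 and without a minimum level. The mean response gave 4 with voom, 2 with 1 median, 1 with a pseudocount of 0.1, 2 with a pseudocount of 2, 1 without a minimum level, 3 without isolation 48 or 54 and 1 without isolation 75 or 77. Blocked voom called more loci at large, with 1039 for BMP4, 73 for BMP6 and 346 for the mean, against 107, 25 and 114 in the blocked limma fit on TPM. The blocked pseudocount, scaling and no-minimum fits were chosen after seeing the data. For vehicle_b against vehicle_a, 1 gene was called, 2 with 1 median, 0 with voom or no minimum level, and 0 to 3 without 1 library. For the response difference 0 of 8 were called in each of these fits. The causes were not tested. Among the directions that turned, Cxcl12 for BMP6 with the block was 0.011 without isolation 75, and Cxcl1 between the vehicles was 0.0030 in FPKM. On leaving out 1 library the ranges on the log2 scale were -0.83 to 0.41 for Cxcl12 with BMP4, -0.029 to 0.56 for Ackr3 with BMP6, -0.68 to 0.090 for Cxcl1 with BMP6 and -0.45 to 0.17 for Cxcl12 in the mean response. They were -0.30 to 0.50 for the response difference of Cxcr4, -2.19 to 0.43 for that of Csf1, and -0.43 to 0.0059 for Ccl2 and -0.47 to 0.31 for Cxcl1 between the vehicles.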
